A study of Mus musculus with 24 samples.

Results

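Granulocyte monocyte progenitors (GMP), blood cells committed to forming neutrophils and monocytes, were compared across all genes with mouse embryonic fibroblasts (MEF), connective tissue cells grown from embryos. The comparison took 12 of the 24 libraries of a mouse study of cycling speed and reprogramming: every GMP library, 8 in all, against the 4 untreated bulk MEF libraries. The GMP libraries were 5 labelled fast cycling and 3 labelled slow cycling. These cells had been kept in X-VIVO15, a serum-free medium, with cytokines that included SCF at 100 ng/ml and IL3 and Flt3 ligand at 50 ng/ml each, and were sorted by their CFSE, a dye shared out at each cell division, after 24 hours of culture with it. The bulk MEF had been kept in DMEM with 10% fetal bovine serum and were labelled unsorted and slow cycling. By the shared protocol, wells of 1000 sorted cells were lysed, the cytosolic RNA was taken and primed with oligo-dT for reverse transcription, and the cDNA was amplified. Cell type, culture medium and the dye sort thus differed together between the groups and cannot be told apart. No label gives the strain, sex or age of the mice, or says whether replicates came from separate mice or cultures, so the p-values rest on the spread between libraries, and that spread may be technical.

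GMP arise in the bone marrow from multipotent progenitors, and the transcription factors PU.1 (encoded by Spi1) and C/EBP alpha (Cebpa) are known to set up their myeloid programme. At this stage the cells begin to make the proteases and the peroxidase of the primary (azurophil) granules, which neutrophils later use against microbes. Fibroblasts in culture secrete and assemble collagen matrix, pull on it through actin stress fibres, and adhere through integrins, and on stiff plastic in serum the Yap, Tead and serum response factors are known to drive their contractile genes.

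Depth differed between the groups, with 2098846 to 4411526 counts in a GMP library against 8997774 to 12028033 in a bulk MEF library. Rn45s and Lars2, to which reads of ribosomal RNA are assigned, took 19.9% to 48.9% of the counts of a GMP library and 3.61% to 6.61% of those of a bulk MEF library, and both genes were left out before scaling. Correlations of log2 values between 2 GMP libraries ran from 0.623 to 0.829, those between a GMP and a bulk MEF library from 0.617 to 0.736, and those between 2 bulk MEF libraries from 0.945 to 0.954. Fast GMP replicate 1 stood apart with counts in 18402 genes, the most of the 12 libraries. The labels were checked against marker genes. All 15 GMP markers had counts in every GMP library and were called higher in GMP, their summed level was 7264 to 29710 CPM (counts scaled to library size with TMM factors) in GMP libraries against 16.6 to 47.6 CPM in bulk MEF libraries, and 1 of them (Gfi1) had no count in any bulk MEF library. The fibroblast markers summed to 84.0 to 595 CPM in GMP libraries against 23530 to 42200 CPM in bulk MEF libraries. Of these markers 12 were tested, 11 of them were called lower in GMP and none higher, and 1 marker had no count in any GMP library.

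The promoters of some of the genes that differed most are shown here, because these genes moved together by large factors and PU.1 or the serum response and Tead factors are known to act on genes of their kinds. Each sequence holds the 250 bases before the start of the gene in RefSeq (GRCm38.p6), read 5′ to 3′ on the strand of the gene. Capitals mark GAGGAAGT, a PU.1 core, in the first 3 sequences, GGAATG, a Tead core, in Acta2 and Cyr61 (its reverse complement in Cyr61), and the CArG box of serum response factor in Myl9. Mpo lies at chr11:87793534-87793783 (+), Elane at chr10:79886062-79886311 (+), Prtn3 at chr10:79879417-79879666 (+), Acta2 at chr19:34255374-34255623 (-), Cyr61 at chr3:145649986-145650235 (-) and Myl9 at chr2:156775214-156775463 (+).
Mpo: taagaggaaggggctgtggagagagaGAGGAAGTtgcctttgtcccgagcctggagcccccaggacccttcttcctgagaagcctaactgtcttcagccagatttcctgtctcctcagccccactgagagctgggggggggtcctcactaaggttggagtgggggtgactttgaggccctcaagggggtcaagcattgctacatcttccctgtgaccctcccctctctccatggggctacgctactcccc
Elane: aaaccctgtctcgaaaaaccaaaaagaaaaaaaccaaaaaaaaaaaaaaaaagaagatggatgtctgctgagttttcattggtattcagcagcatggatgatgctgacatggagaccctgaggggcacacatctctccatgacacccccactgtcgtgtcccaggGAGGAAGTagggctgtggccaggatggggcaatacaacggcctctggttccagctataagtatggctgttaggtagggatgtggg
Prtn3: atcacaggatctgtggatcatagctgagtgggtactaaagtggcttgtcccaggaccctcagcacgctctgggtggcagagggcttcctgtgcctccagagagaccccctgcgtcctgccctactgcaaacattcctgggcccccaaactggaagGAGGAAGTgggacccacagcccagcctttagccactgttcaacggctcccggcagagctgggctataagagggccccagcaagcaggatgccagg
Acta2: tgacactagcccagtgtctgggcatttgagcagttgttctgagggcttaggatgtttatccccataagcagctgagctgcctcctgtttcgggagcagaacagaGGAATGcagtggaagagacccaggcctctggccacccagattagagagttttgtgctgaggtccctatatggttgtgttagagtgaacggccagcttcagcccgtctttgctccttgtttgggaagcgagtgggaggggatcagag
Cyr61: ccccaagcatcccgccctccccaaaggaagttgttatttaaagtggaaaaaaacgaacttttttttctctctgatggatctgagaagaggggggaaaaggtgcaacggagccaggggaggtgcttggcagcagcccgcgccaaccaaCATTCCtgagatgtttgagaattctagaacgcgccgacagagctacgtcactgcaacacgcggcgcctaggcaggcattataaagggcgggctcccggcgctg
Myl9: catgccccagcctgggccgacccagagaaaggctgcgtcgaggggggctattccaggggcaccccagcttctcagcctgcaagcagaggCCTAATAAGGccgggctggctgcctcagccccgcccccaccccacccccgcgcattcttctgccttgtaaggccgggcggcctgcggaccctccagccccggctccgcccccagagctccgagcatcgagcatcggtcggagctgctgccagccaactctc

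Counted from the gene start, the PU.1 core lay at -224 to -217 in Mpo, at -85 to -78 in Elane and at -95 to -88 in Prtn3. It was not in the windows of Ctsg and Ms4a3, and the C/EBP letters TTGCNNAA were in none of these 5 windows. The Tead core lay at -146 to -141 in Acta2 and at -103 to -98 in Cyr61, and the CArG box at -161 to -152 in Myl9. The CArG box was searched as CCWWWWWWGG, where W is A or T, and only exact matches were counted. The Acta2 window holds ccctatatgg and ccttgtttgg, which come close to these letters without matching them and are not in capitals. Acta2 is thus not shown to lack a CArG box. The windows of Cnn1 and Col1a2 were searched as well and held neither the Tead core nor the CArG box. Like those of Ctsg and Ms4a3, they are not printed above. The Tead core was also in the Prtn3 window, as its reverse complement at -120 to -115, where it is not in capitals. Of the 10951 genes tested, 8760 had a promoter in the RefSeq table, which holds 27025 promoters. On either strand, GAGGAAGT was present in 4.76% of the promoters of genes higher in GMP, 1.59% of those lower in GMP, 2.21% of those not called and 2.44% of the whole table. For GGAATG the shares were 11.7%, 14.8%, 9.59% and 12.6% in the same order, and for the CArG box 0.649%, 2.32%, 1.13% and 1.4%. TTGCNNAA was in 9.31%, 6.23%, 6.87% and 9.55%. These motifs do not contain one another, and a match of letters is a description of the sequence and not of binding.

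Between GMP and bulk MEF, 2094 of 10951 genes (19.1%) passed edgeR's quasi-likelihood test at an adjusted p under 0.05. Of these, 1178 (10.8% of the genes tested) were higher in GMP and 916 (8.36%) were lower. The differences were large: 1018 called genes differed by at least 32-fold, 711 of them higher and 307 lower, and the smallest called difference was 1.01 on the log2 scale. The called genes higher in GMP made up 21.7% of the CPM of GMP libraries against 2.54% of those of bulk MEF, and the genes lower in GMP made up 2.41% of the CPM in GMP against 34.8% in bulk MEF. Among the genes higher in GMP, 137 had no count in any bulk MEF library, and among those lower, 11 had no count in any GMP library. The GMP libraries spread widely, with a median SD of log2 CPM of 1.3 per gene against 0.51 in bulk MEF. In 1522 of the called genes (13.9% of the genes tested) all 8 GMP libraries lay on one side of all 4 bulk MEF libraries, 643 of them higher and 879 lower. The median over all genes tested was 0.34 on the log2 scale, and the medians of gene lists given here are read against it. Leaving out any 1 bulk MEF library brought the number of called genes down to between 1245 and 1293, whereas without fast GMP replicate 1 it was 2141.

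**Figure D1:**
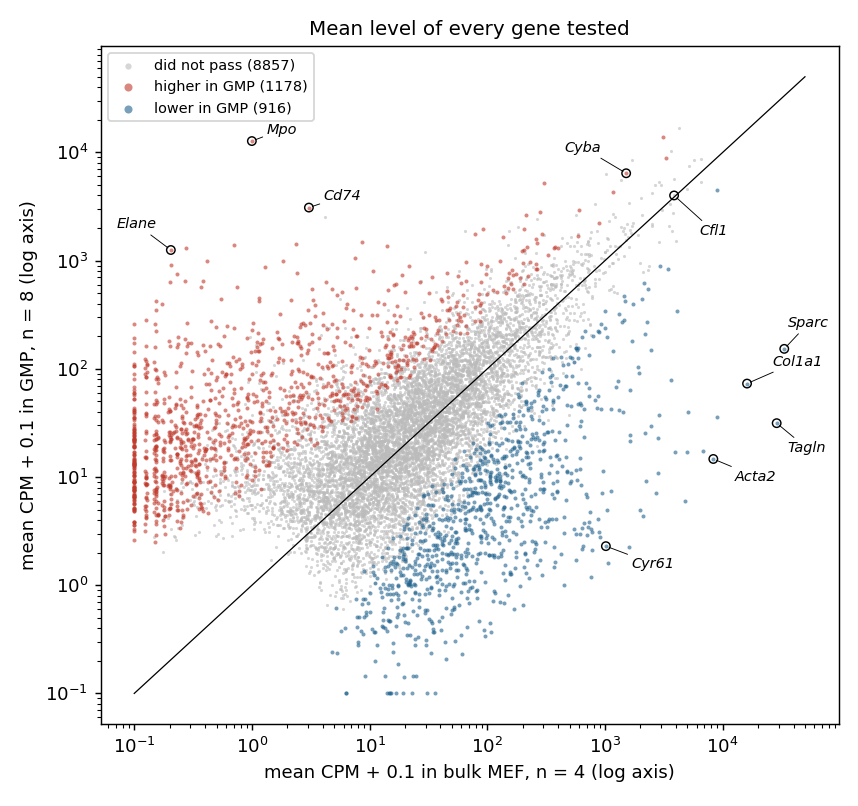
Every tested gene, with its mean CPM plus 0.1 in the 8 GMP libraries on the vertical axis and in the 4 bulk MEF libraries on the horizontal axis, both log axes, and a line where the means are equal; genes with an edgeR adjusted p under 0.05 are coloured by direction and ringed genes are named. Mpo (mean 12730 CPM in GMP and 0.899 CPM in bulk MEF) lies far above the line, Tagln (31.4 and 28750 CPM) far below it, and Cfl1 (4000 and 3862 CPM) on it.

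Primary granule genes were far higher in GMP. Of the 17 on the list, all of them tested, 14 were called higher and none lower, with a median of 6.17 (6.82 without fast GMP replicate 1). Mpo, the peroxidase that makes hypochlorous acid in the granule, had between 4238 and 21130 CPM in GMP libraries (median 12780), against 0.795, 0.95, 1.04 and 0.808 CPM in the 4 bulk MEF libraries. No library came near the other group, and the difference was 13.75 ± 0.83 on the log2 scale (log2 of GMP over bulk MEF ± SE, edgeR adjusted p 3.186e-08). Elane, which encodes neutrophil elastase, ran from 601 to 2225 CPM in GMP (median 1121), while bulk MEF had 0, 0.095, 0.208 and 0.115 CPM. Its log2 fold change was 13.24 ± 0.96 (edgeR adjusted p 2.179e-07). Proteinase 3 (Prtn3) is a sister protease of elastase in the same gene cluster. It had 473.5 to 1860 CPM in GMP (median 888.9) against 0, 0, 1.15 and 0.115 CPM in bulk MEF, a difference of 11.52 ± 1.33 (edgeR adjusted p 3.589e-05), or 13.88 without bulk MEF replicate 3. Cathepsin G (Ctsg) ran from 228.8 to 1656 CPM in GMP (median 514.6), against 0, 0.095, 0.312 and 0 CPM in bulk MEF. It differed by 12.27 ± 1.27 (edgeR adjusted p 1.086e-05), or 13.28 without bulk MEF replicate 3. Lysozyme (Lyz2), an enzyme that cleaves bacterial walls and that macrophages also make, also had counts in every bulk MEF library. It ran from 346.5 to 1462 CPM in GMP (median 670.2) against 16.2, 18.2, 11.7 and 29.0 CPM in bulk MEF, with a log2 fold change of 5.30 ± 0.66 (edgeR adjusted p 6.977e-05).

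Most of the tested genes that neutrophils switch on later in maturation were higher in GMP as well. Of 22 such genes, 13 were tested, 10 were called higher and 1 lower, with a median of 7.95. With the 6 tested members that had no count in bulk MEF at the lower bound of their fold, the median was 7.18, and no other list median printed here moved in this way. It was 8.60 without bulk MEF replicate 3 and 8.57 without slow GMP replicate 2. Of the 21 members that could be matched, 14 had no count in any bulk MEF library. Such a member could pass the filter only through its GMP counts, so its direction is no independent finding. Over the whole list the summed level overlapped, at 298.4 to 1145 CPM in GMP libraries and 332.6 to 453.3 CPM in bulk MEF libraries. Most of the bulk MEF sum was Anxa1, described below. Haptoglobin (Hp), a hemoglobin-binding protein stored in neutrophil granules, had 42.2 to 763.4 CPM in GMP (median 214.1) and no count in any bulk MEF library. It was at least 3266-fold higher in GMP, taking 3 counts over the bulk MEF group as the floor (edgeR adjusted p 7.403e-05). Lipocalin 2 (Lcn2), which binds bacterial siderophores, ran from 5.14 to 55.7 CPM in GMP (median 15.4), also without a count in bulk MEF, and was at least 272.6-fold higher (edgeR adjusted p 0.0005011). S100a9, a subunit of the abundant neutrophil protein calprotectin, ranged from 0.343 to 71.1 CPM in GMP (median 16.7) and was at least 283.9-fold higher (edgeR adjusted p 0.00658). The member that was lower in GMP was annexin A1 (Anxa1), a membrane-binding protein that fibroblasts make too. Its GMP libraries held 9.48 to 55.5 CPM (median 24.6), against 312.2, 298.9, 306.4 and 404.4 CPM in bulk MEF, a difference of -3.66 ± 0.54 (edgeR adjusted p 0.0002641).

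All 6 genes of the phagocyte oxidase, the enzyme that makes superoxide, were called higher in GMP, with a median of 6.07, and 4 or 5 of them without 1 bulk MEF library. Cybb, its catalytic subunit, had 55.9 to 153.3 CPM in GMP (median 87.1) against 1.29, 0.285, 0.729 and 1.27 CPM in bulk MEF (6.62 ± 0.84, edgeR adjusted p 7.493e-05). Rac2, the GTPase of the complex in blood cells, differed by 6.63 ± 1.23 (edgeR adjusted p 0.001685). Cyba, the partner subunit that stabilises Cybb, was high in both groups: 2525 to 21200 CPM in GMP (median 4298) against 2011, 1562, 1032 and 1444 CPM in bulk MEF. Its difference was 2.08 ± 0.59 (edgeR adjusted p 0.02229), and it no longer passed whichever bulk MEF library was left out.

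Of 37 transcription factors of myeloid cells and progenitors, 32 were tested, 15 were called higher in GMP and none lower, with a median of 2.74. Without 1 bulk MEF library 11 to 13 were higher, and the median was 4.24 without bulk MEF replicate 3. Spi1 (PU.1, listed as Sfpi1) had 250.1 to 2577 CPM in GMP (median 602.5) against 14.3, 14.4, 0.312 and 0.577 CPM in bulk MEF (7.15 ± 1.36, edgeR adjusted p 0.002021). Cebpa ran from 7.88 to 317.6 CPM in GMP (median 151.2), against 1.69, 7.70, 4.48 and 3.00 CPM in bulk MEF, with the lowest GMP library just above the highest bulk MEF library (5.03 ± 1.02, edgeR adjusted p 0.003243). Cebpe, the C/EBP factor of later granule genes, ranged from 2.74 to 1515 CPM in GMP (median 82.1) against 0, 0.095, 0 and 0.115 CPM in bulk MEF. The GMP libraries thus lay far apart, and the difference of 12.42 ± 2.18 (edgeR adjusted p 0.001156) became 11.79 without fast GMP replicate 4, the highest. Gfi1, a repressor needed for neutrophil formation, had 1.58 to 58.7 CPM in GMP (median 8.36) and no count in bulk MEF, so it was at least 193.2-fold higher (edgeR adjusted p 0.00265). Its fitted log2 fold change of 8.97 was 8.03 without slow GMP replicate 2. Nfe2, a factor best known from megakaryocytes and red cells, was also without a count in bulk MEF and at least 1424-fold higher (edgeR adjusted p 7.14e-05). Lmo2, an adaptor of hematopoietic factor complexes, differed by 7.90 ± 1.16 (edgeR adjusted p 0.0002484), and the interferon regulatory factor Irf5 by 4.44 ± 0.91 (edgeR adjusted p 0.00342).

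Irf8, which directs progenitors to monocytes, and Myb, which keeps progenitors dividing, passed less firmly. Irf8 had 58.8 to 1018 CPM in GMP (median 142.2) against 0.298, 1.62, 2.50 and 34.7 CPM in bulk MEF, and Myb 9.64 to 312.6 CPM in GMP (median 19.6) against 0, 0, 0.104 and 3.23 CPM. In both genes bulk MEF replicate 4 was the highest of its group and fast GMP replicate 5 the highest of the GMP. Irf8 differed by 4.61 ± 1.31 (edgeR adjusted p 0.02219), by 7.27 without bulk MEF replicate 4 and by 3.78 without fast GMP replicate 5. Myb differed by 6.11 ± 1.77 (edgeR adjusted p 0.02381), by 9.85 without bulk MEF replicate 4 and by 4.77 without fast GMP replicate 5. Neither gene passed without bulk MEF replicate 1, 2 or 3. Several other factors known from blood did not pass. Runx1, without which no blood stem cells form, had 33.9 to 274.1 CPM in GMP (median 142.5) against 90.0, 147.5, 180.2 and 126.9 CPM in bulk MEF (0.10 ± 0.61, edgeR adjusted p 0.9333). Cebpb, the stress-induced C/EBP factor, also overlapped between the groups (0.67 ± 0.62, edgeR adjusted p 0.4989), as did Gata2, a factor of stem cells and mast cells (2.69 ± 1.08, edgeR adjusted p 0.0963).

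Of 24 hematopoietic cytokine and related receptors, 20 were tested, 14 were called higher in GMP and 2 lower, with a median of 5.00. Csf2rb, the shared beta chain of the receptors of GM-CSF, IL3 and IL5, had 464.9 to 1453 CPM in GMP (median 986.8) against 0.895, 1.62, 2.71 and 1.73 CPM in bulk MEF (9.14 ± 0.72, edgeR adjusted p 6.236e-07). Csf3r, the receptor of the neutrophil growth factor G-CSF, ran from 21.3 to 638.1 CPM in GMP (median 95.7), against 0.199, 0.095, 0.416 and 0.115 CPM in bulk MEF. The difference was 9.55 ± 1.44 (edgeR adjusted p 0.0003313), or 8.87 without slow GMP replicate 1. Csf1r, which binds the macrophage growth factor M-CSF, had 58.8 to 292.7 CPM in GMP (median 135.7) against 7.95, 0.475, 2.19 and 16.04 CPM in bulk MEF (4.62 ± 0.999, edgeR adjusted p 0.004852; 5.48 without bulk MEF replicate 4). Its ligand Csf1 showed the opposite, with 1.84 to 100.6 CPM in GMP (median 9.63) against 1586, 1695, 1405 and 1845 CPM in bulk MEF (-6.05 ± 0.93, edgeR adjusted p 0.0003777; -6.86 without slow GMP replicate 1). The IL3 receptor alpha chain Il3ra overlapped between the groups (1.92 ± 1.12, edgeR adjusted p 0.259), with a difference of 0.43 without fast GMP replicate 3 and 2.58 without bulk MEF replicate 2. Il1rl1, the receptor of IL33, was lower in GMP, with 0.862 to 23.1 CPM (median 4.11) against 155.9, 91.9, 115.4 and 105.1 CPM in bulk MEF (-4.21 ± 0.80, edgeR adjusted p 0.001992; -4.87 without fast GMP replicate 1).

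The receptors and surface markers of early progenitors varied widely between GMP libraries. Kit, the receptor of SCF, had 1.804 to 391.4 CPM in GMP (median 21.0) against 0.199, 0, 0.312 and 0 CPM in bulk MEF, without overlap. It differed by 8.78 ± 1.89 (edgeR adjusted p 0.004809), by 7.17 without fast GMP replicate 5 and by 9.42 without bulk MEF replicate 3. Cd34, a sialomucin used to sort progenitors, had 5.45 to 177.3 CPM in GMP (median 22.1) against 0.298, 0.855, 3.85 and 2.31 CPM in bulk MEF. Its difference of 4.45 ± 1.17 (edgeR adjusted p 0.01478) was 3.52 without slow GMP replicate 2 and 5.05 without bulk MEF replicate 3, and it was lost when bulk MEF replicate 1, 2 or 4 was left out. Flt3, the receptor of Flt3 ligand, was too low to test, at 0 to 25.2 CPM in GMP (median 0.431) with no count in bulk MEF. Of 24 stem cell and early progenitor genes, 15 were tested, with a median of -0.02 (-0.87 without slow GMP replicate 3). Of these, 3 were called higher (20.0%, against 10.8% of all genes tested) and 1 lower (6.67%, against 8.36%). Without fast GMP replicate 5, 3 were lower. The 1 called lower with all libraries was Ly6a (Sca-1), which GMP are known to lack (-4.20 ± 0.87, edgeR adjusted p 0.003587).

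Genes shared by all white blood cells were higher in GMP almost throughout. Of 39 surface and signalling genes of this kind, 37 were tested and 31 called higher in GMP, none lower, with a median of 6.37. Ptprc (CD45), the phosphatase on every nucleated blood cell, had 32.5 to 337.7 CPM in GMP (median 114.5) against 0.0994, 2.57, 0.937 and 0.462 CPM in bulk MEF (7.13 ± 1.11, edgeR adjusted p 0.0004224; 8.10 without bulk MEF replicate 2). Coro1a, an actin regulator of blood cells, ran from 297.8 to 2822 CPM in GMP (median 1368), against 9.45, 27.9, 15.4 and 2.54 CPM in bulk MEF (6.62 ± 0.89, edgeR adjusted p 0.0001269). Ptpn6 (SHP-1), which dampens cytokine signalling, differed by 9.73 ± 1.38 (edgeR adjusted p 0.0001986), and Laptm5, a lysosomal membrane protein, by 6.2 ± 0.91 (edgeR adjusted p 0.0002739). Of 9 blood integrins and their partners, 5 were higher and 1 was lower, with a median of 5.31. Itgb7, a lymphoid and mast cell integrin chain, had 10.6 to 386.5 CPM in GMP (median 82.6) and no count in bulk MEF, at least 1471-fold higher (edgeR adjusted p 0.0003101). Itgb3, a chain of the vitronectin receptor, was the lower one (-3.99 ± 0.65, edgeR adjusted p 0.0005891).

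**Figure D2:**
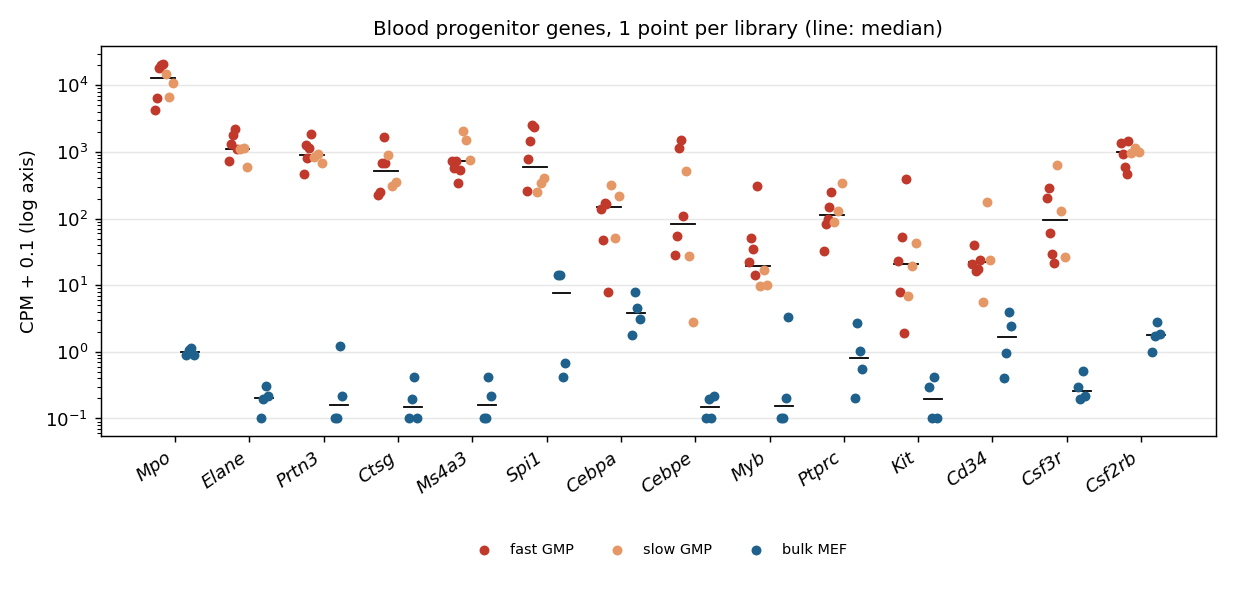
CPM plus 0.1 on a log axis for 14 blood genes, 1 point per library in fast GMP (5), slow GMP (3) and bulk MEF (4), with a line at the median of each group. All 8 GMP points lie above all 4 bulk MEF points for each of the 14 genes, with the widest gap at Mpo (4238 CPM and above in GMP, 1.04 CPM and below in bulk MEF).

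Most monocyte, macrophage and dendritic cell genes that could be tested were higher in GMP. Of 25, 21 were tested, 13 were called higher in GMP and 2 lower, with a median of 3.95 (4.72 without bulk MEF replicate 1). The antigen presentation genes were high in every GMP library: Cd74, the invariant chain of MHC class II, had 1938 to 3843 CPM in GMP (median 3223) against 3.68, 0.76, 5.62 and 1.73 CPM in bulk MEF (10.02 ± 0.76, edgeR adjusted p 3.985e-07). H2-Aa, a class II chain, ran from 237.5 to 2695 CPM in GMP (median 495.5), against 0.199, 0.095, 0 and 0.231 CPM in bulk MEF (12.24 ± 1.301, edgeR adjusted p 1.456e-05). Ly6c2, the surface protein of inflammatory monocytes, had 244.0 to 489.8 CPM in GMP (median 403.3) against 0, 0.285, 0 and 0 CPM in bulk MEF (11.95 ± 1.13, edgeR adjusted p 4.762e-06; 13.70 without bulk MEF replicate 2). Cd68, a lysosomal protein of macrophages, differed by 3.98 ± 0.88 (edgeR adjusted p 0.005562). The complement gene C1qa, made by tissue macrophages, went the other way, with 0 to 8.30 CPM in GMP (median 0) against 29.5, 19.8, 13.3 and 45.8 CPM in bulk MEF. That difference was -4.61 ± 1.42 (edgeR adjusted p 0.0323) and -10.06 without fast GMP replicate 1, the GMP library with the highest level, and it did not pass whichever bulk MEF library was left out. Over the whole list the summed level was 4967 to 11060 CPM in GMP libraries and 266.9 to 386.8 CPM in bulk MEF libraries, and 1 member (Siglech, of plasmacytoid dendritic cells) had no count in any bulk MEF library. The part of other blood cells among the sorted GMP, or of macrophages among the MEF, in these values was not tested. In bulk samples, fewer cells of a type and less RNA per cell cannot be told apart.

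Collagen genes were far lower in GMP. Of 23, 19 were tested, 14 were called lower in GMP and 1 higher, with a median of -6.37 (-7.10 without fast GMP replicate 1 and -5.62 without bulk MEF replicate 3). Col1a2, a chain of type I collagen, had 20.9 to 51.2 CPM in GMP (median 33.0) against 7428, 8157, 12830 and 7207 CPM in bulk MEF (-7.96 ± 0.42, edgeR adjusted p 7.497e-09). Col1a1, the other chain, ran from 28.4 to 237.9 CPM in GMP (median 46.9), against 10520, 21140, 22390 and 10330 CPM in bulk MEF (-7.78 ± 0.62, edgeR adjusted p 8.375e-07). Every GMP library kept some counts of both chains, and all GMP libraries lay far below the lowest bulk MEF library. Col3a1, the collagen of distensible tissues such as vessels, had 0.451 to 12.3 CPM in GMP (median 1.51) against 260.4, 297.0, 423.2 and 170.8 CPM in bulk MEF (-6.40 ± 0.81, edgeR adjusted p 8.061e-05; -7.07 without fast GMP replicate 1). The collagen called higher was Col15a1. Fast GMP replicate 1 had 590.5 CPM, while the GMP median was 4.93 CPM and bulk MEF had 0.597, 0.57, 0.416 and 0 CPM. Its difference of 7.53 ± 2.52 (edgeR adjusted p 0.04752) was 3.71 without fast GMP replicate 1, and it did not pass once fast GMP replicate 1, fast GMP replicate 2 or any bulk MEF library was left out. Of the enzymes that process collagen, 11 of 19 tested were lower and none higher, with a median of -4.08. Serpinh1, the chaperone of procollagen, had 3.15 to 14.8 CPM in GMP (median 6.23) against 3300, 3089, 2549 and 1978 CPM in bulk MEF (-8.58 ± 0.51, edgeR adjusted p 2.098e-08).

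Other matrix genes were lower in GMP too. Of 33 matrix glycoproteins and proteoglycans, 31 were tested, 23 were called lower in GMP and 1 higher, with a median of -5.67. Without fast GMP replicate 1, 27 were lower and the median was -6.59. The list summed to 667.1 to 1336 CPM in GMP libraries against 53240 to 61190 CPM in bulk MEF libraries. Sparc, a collagen-binding glycoprotein, had 42.5 to 714.9 CPM in GMP (median 81.3) against 34060, 36110, 29590 and 33580 CPM in bulk MEF. It differed by -7.77 ± 0.77 (edgeR adjusted p 7.691e-06), or -8.82 without slow GMP replicate 3, the highest of the GMP. Bgn (biglycan, a small proteoglycan) ran from 7.89 to 28.1 CPM in GMP (median 16.7), against 5231, 5076, 4484 and 5001 CPM in bulk MEF (-8.21 ± 0.47, edgeR adjusted p 1.773e-08). Tenascin C (Tnc), a matrix protein of wounds, differed by -7.72 ± 0.68 (edgeR adjusted p 2.12e-06). The exception was versican (Vcan), a large proteoglycan that blood monocytes are also known to make, with 129.2 to 900.1 CPM in GMP (median 352.2) against 86.6, 67.6, 104.0 and 86.0 CPM in bulk MEF. The difference of 2.18 ± 0.57 (edgeR adjusted p 0.0141) was lost when bulk MEF replicate 1, 2 or 4 was left out. Of the matrix proteases and their inhibitors, 11 of 18 tested were lower and 1 higher, with a median of -3.97 (-4.67 without slow GMP replicate 3). Mmp14, the membrane-bound collagenase, was among the lower ones (-6.26 ± 0.63, edgeR adjusted p 9.192e-06).

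Genes of the contractile apparatus were far lower in GMP, with small errors. Of 23 contractile genes, all tested, 18 were called lower in GMP and none higher, with a median of -5.15. Tagln (transgelin, an actin cross-linker of smooth muscle and stress fibres) had 15.1 to 58.7 CPM in GMP (median 31.6) against 25210, 37050, 22410 and 30310 CPM in bulk MEF (-9.84 ± 0.47, edgeR adjusted p 2.676e-09). Acta2, the smooth muscle actin of myofibroblasts, ran from 9.02 to 24.1 CPM in GMP (median 12.9), against 8070, 9126, 6609 and 9478 CPM in bulk MEF (-9.15 ± 0.44, edgeR adjusted p 2.676e-09). Myl9, a myosin light chain, had 1.72 to 11.2 CPM in GMP (median 6.15) against 4851, 5022, 4085 and 5274 CPM in bulk MEF (-9.66 ± 0.55, edgeR adjusted p 1.631e-08). Within each group these 3 genes varied little next to the gap between the groups, and no library came near the other group. Of 17 genes of the Yap, Tead and serum response pathways (targets, the factors themselves and their regulators), all tested, 12 were lower and none higher, with a median of -5.02. Without fast GMP replicate 1, 14 were lower and the median was -6.09. Cyr61, a matricellular target of Yap, had 0.686 to 4.77 CPM in GMP (median 1.93) against 1032, 1013, 897.5 and 1125 CPM in bulk MEF (-8.84 ± 0.59, edgeR adjusted p 8.292e-08). Ctgf, its relative, differed by -7.91 ± 1.003 (edgeR adjusted p 8.061e-05), and Tead1, one of the factors themselves, had 0 to 12.2 CPM in GMP (median 1.04) against 173.3, 238.8, 213.2 and 152.7 CPM in bulk MEF (-5.66 ± 1.13, edgeR adjusted p 0.002892).

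**Figure D3:**
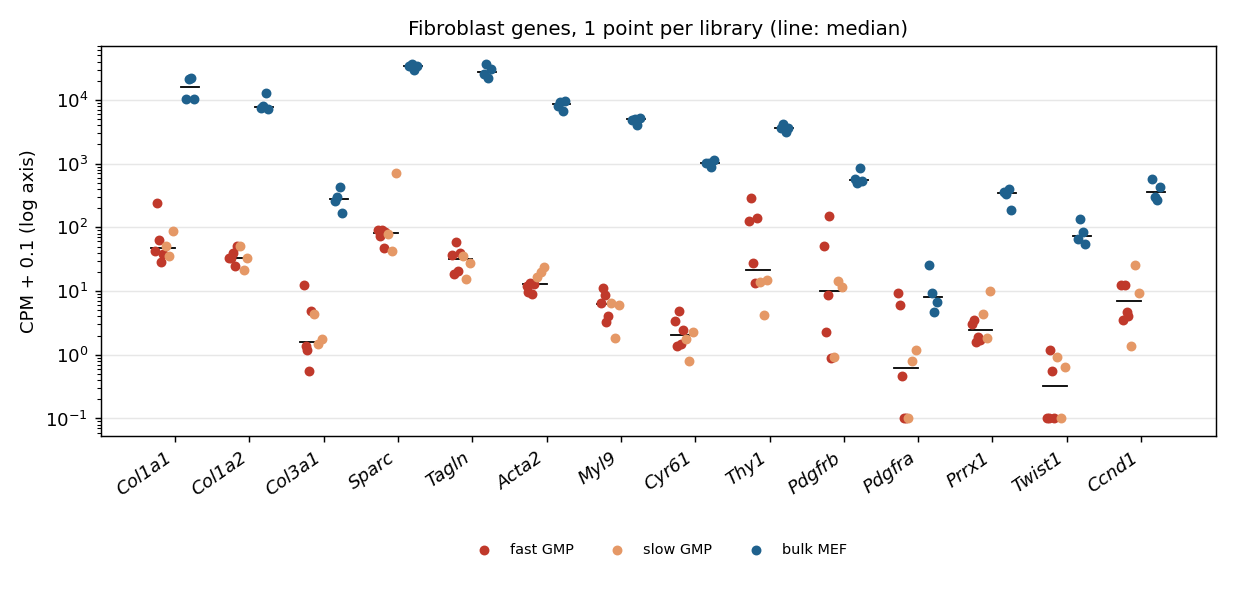
CPM plus 0.1 on a log axis for 14 genes of fibroblasts, 1 point per library in fast GMP (5), slow GMP (3) and bulk MEF (4), with a line at the median of each group. The GMP points lie below all bulk MEF points for every gene drawn except Pdgfra, where the GMP reach 9.38 CPM and bulk MEF begin at 4.58 CPM.

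The mesenchymal transcription factors that passed were all lower in GMP. Of 37, 23 were tested, 11 were called lower and none higher, with a median of -3.35, and without 1 bulk MEF library between 7 and 11 passed. The median was -1.87 without bulk MEF replicate 1 and -2.18 without bulk MEF replicate 4. Prrx1, a homeobox factor of limb and skin mesenchyme, had 1.47 to 9.85 CPM in GMP (median 2.35) against 361.0, 338.0, 398.8 and 184.3 CPM in bulk MEF (-6.57 ± 0.67, edgeR adjusted p 9.085e-06). Twist1, a factor of mesoderm and of epithelial to mesenchymal transition, ran from 0 to 1.101 CPM in GMP (median 0.226), against 64.7, 135.1, 83.9 and 54.2 CPM in bulk MEF (-7.71 ± 0.97, edgeR adjusted p 7.403e-05). For both genes every GMP library lay well below every bulk MEF library. Creb3l1, which promotes collagen secretion, differed by -6.99 ± 0.84 (edgeR adjusted p 4.871e-05). Of the 32 Hox genes, which record position along the body axis, 14 were tested. Of these, 4 were called lower in GMP (28.6%, against 8.36% of all genes tested) and none higher. Hoxb8 had no count in any GMP library, against 20.1, 37.0, 13.6 and 6.00 CPM in bulk MEF, at least 122.4-fold lower in GMP by the floor of 3 counts over the group (edgeR adjusted p 0.001802). Leaving out bulk MEF replicate 2 took its fitted log2 fold change to -8.85, against -9.52 with all libraries.

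About as many fibroblast receptors were lower in GMP as did not pass. Of 30 receptor and surface genes, 27 were tested, 14 were called lower in GMP and none higher, with a median of -2.05 (-2.82 without fast GMP replicate 1). Thy1, a surface glycoprotein of fibroblasts and T cells, had 4.12 to 285.7 CPM in GMP (median 21.2) against 3608, 4173, 3169 and 3667 CPM in bulk MEF (-5.55 ± 0.92, edgeR adjusted p 0.0006991; -6.22 without fast GMP replicate 2). Pdgfrb, a receptor of platelet-derived growth factor, ran from 0.788 to 149.7 CPM in GMP (median 9.97), against 568.8, 489.5, 846.6 and 536.6 CPM in bulk MEF (-4.36 ± 1.07, edgeR adjusted p 0.0105; -5.59 without fast GMP replicate 4). Its sister Pdgfra was low in both, with 0 to 9.38 CPM in GMP (median 0.527) and 26.0, 9.12, 4.58 and 6.58 CPM in bulk MEF, and did not pass (-2.36 ± 1.20, edgeR adjusted p 0.1927; -1.67 without bulk MEF replicate 1 and -3.21 without fast GMP replicate 1). Cd44, the hyaluronan receptor, which blood cells also carry, differed less, with 121.3 to 459.8 CPM in GMP (median 169.0) against 1010, 791.9, 764.1 and 989.5 CPM in bulk MEF (-2.01 ± 0.47, edgeR adjusted p 0.007485). Of the adhesion genes, 11 of 21 tested were lower and none higher (median -3.62), and of the caveolae and focal adhesion genes 12 of 17 were lower and none higher (median -4.62). Vcl (vinculin), which ties integrins to actin, had 1.58 to 32.3 CPM in GMP (median 10.0) against 548.2, 557.1, 639.0 and 511.9 CPM in bulk MEF (-5.60 ± 0.63, edgeR adjusted p 2.55e-05).

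Most of the tested secreted factors were lower in GMP. Of 41, 33 were tested, 21 were called lower in GMP, 1 was called higher and 11 did not pass, with a median of -4.21. Inhba, which forms activin A, had 0 to 8.44 CPM in GMP (median 1.63) against 901.4, 950.5, 856.4 and 940.4 CPM in bulk MEF (-8.35 ± 0.85, edgeR adjusted p 1.026e-05). The binding proteins of insulin-like growth factors differed among themselves. Igfbp7 was lower, with 0 to 1.81 CPM in GMP (median 0.845) against 417.7, 544.6, 381.7 and 440.4 CPM in bulk MEF (-8.89 ± 0.81, edgeR adjusted p 3.2e-06), whereas Igfbp4 was the 1 member that was higher. It had 631.4 to 4334 CPM in GMP (median 1084) against 327.9, 167.5, 273.4 and 273.5 CPM in bulk MEF, without overlap (2.61 ± 0.58, edgeR adjusted p 0.005743). Imprinted genes, expressed from 1 parental allele and mostly active in the embryo, were lower: 12 of 19 tested, none higher, with a median of -4.07. Cdkn1c (p57), a cell cycle inhibitor, had 0 to 0.862 CPM in GMP (median 0) against 35, 48.6, 39.8 and 14.9 CPM in bulk MEF (-6.86 ± 1.07, edgeR adjusted p 0.000399). The growth factor gene Igf2 and its neighbour H19 were lower as well. Igf2 differed by -5.57 ± 0.71 (edgeR adjusted p 8.948e-05; -6.27 without slow GMP replicate 2). H19 had 0.451 to 111.0 CPM in GMP (median 2.00) against 376.4, 362.9, 381.9 and 435.4 CPM in bulk MEF, a difference of -4.62 ± 1.24 (edgeR adjusted p 0.01636) that was -7.49 without slow GMP replicate 1.

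The genes of S phase and mitosis that passed were all higher in GMP. Of 35 genes of S phase, all tested, 13 were called higher (37.1%, against 10.8% of all genes tested) and none lower, with a median of 2.45. Of 30 genes of G2 and mitosis, 9 were higher (30.0%) and none lower, with a median of 1.90. The S phase list summed to 2729 to 11950 CPM in GMP libraries against 747.1 to 1078 CPM in bulk MEF libraries, and the mitosis list to 1150 to 2071 CPM against 331.8 to 472.0 CPM, without overlap in either. These calls were few once a bulk MEF library was left out, at 3 to 5 for S phase and 2 to 3 for mitosis. Mcm3, a subunit of the replicative helicase, had 215.1 to 2133 CPM in GMP (median 705.6) against 39.3, 46.5, 51.7 and 42.7 CPM in bulk MEF (4.09 ± 0.72, edgeR adjusted p 0.001235). Pcna, the sliding clamp of DNA polymerase, ran from 135.8 to 485.9 CPM in GMP (median 205.0), against 48.5, 46.7, 34.0 and 23.7 CPM in bulk MEF (2.59 ± 0.58, edgeR adjusted p 0.006299). Top2a, the topoisomerase of dividing cells, had 121.3 to 466.4 CPM in GMP (median 186.0) against 37.9, 18.5, 34.0 and 25.7 CPM in bulk MEF (3.04 ± 0.62, edgeR adjusted p 0.003376). Mki67, the Ki-67 proliferation antigen, overlapped by 1 library, with 18.9 to 133.1 CPM in GMP (median 64.8) against 19.5, 14.1, 12.3 and 10.3 CPM in bulk MEF. It passed (2.28 ± 0.68, edgeR adjusted p 0.02812) but did not whichever bulk MEF library was left out. The bulk MEF are labelled slow cycling, and culture and cell type differed from the GMP as well.

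Among the regulators of the cycle the D cyclins, which carry growth signals to the cycle, differed from one another. Ccnd1 had 1.26 to 25.7 CPM in GMP (median 6.91) against 579.0, 299.2, 266.6 and 425.9 CPM in bulk MEF (-5.42 ± 0.71, edgeR adjusted p 0.0001096). Ccnd2 ran from 85.1 to 973.5 CPM in GMP (median 423.5), against 1076, 1579, 1508 and 1755 CPM in bulk MEF (-1.8 ± 0.52, edgeR adjusted p 0.02407), and was lost when bulk MEF replicate 2, 3 or 4 was left out. Ccnd3, the D cyclin known from blood cells, had 135.1 to 1320 CPM in GMP (median 297.7) and overlapped with bulk MEF, at 185.7, 169.3, 171.8 and 271.8 CPM (0.95 ± 0.64, edgeR adjusted p 0.3318; 0.34 without fast GMP replicate 4). The inhibitor Cdkn2b (p15) had 0 to 2.89 CPM in GMP (median 0) against 143.9, 211.9, 87.9 and 114.6 CPM in bulk MEF (-7.77 ± 1.099, edgeR adjusted p 0.0001875; -8.92 without fast GMP replicate 1). Of 19 tested p53 genes, 3 were lower in GMP (15.8%, against 8.36% of all genes tested) and none higher, with a median of -1.31. Without fast GMP replicate 5 the number lower was 5, and it was 2 whichever bulk MEF library was left out. Trp53 itself, the gene of p53, had 78.8 to 805.8 CPM in GMP (median 281.4) against 340.4, 322.6, 401.8 and 298.9 CPM in bulk MEF (-0.02 ± 0.54, edgeR adjusted p 0.9845). Its target Cdkn1a (p21) had 366.2 to 5440 CPM in GMP (median 1039) against 4377, 3914, 2923 and 4980 CPM in bulk MEF, and did not pass (-1.42 ± 0.61, edgeR adjusted p 0.1181). Fast GMP replicate 4, the highest of the GMP, alone reached the bulk MEF, and without it the difference was -2.09 (edgeR adjusted p 0.006363).

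Of the 4 reprogramming factors, Klf4 and Myc could be tested, and neither passed. Klf4 had 53.4 to 263.0 CPM in GMP (median 104.4) against 123.4, 125.7, 155.1 and 127.7 CPM in bulk MEF (-0.08 ± 0.57, edgeR adjusted p 0.9469). Myc ran from 11.03 to 167.3 CPM in GMP (median 49.3), against 98.9, 105.6, 257.7 and 137.1 CPM in bulk MEF (-1.36 ± 0.67, edgeR adjusted p 0.1759). Pou5f1, which encodes Oct4, and Sox2 were too low to test, with at most 4.38 and 1.101 CPM in a GMP library against at most 2.29 and 4.37 CPM in a bulk MEF library. With standard errors of this size, even a difference such as the -1.36 of Myc did not pass. Differences of over 1 on the log2 scale could thus be missed in these genes. Of the DNA methylation and Polycomb genes, 5 of 19 tested (26.3%, against 10.8% of all genes) were called higher in GMP and none lower. Their median was 1.74, and 0 to 3 were higher without 1 bulk MEF library. Dnmt1, the maintenance methyltransferase, had 104.0 to 777.2 CPM in GMP (median 179.0) against 29.9, 42.1, 48.0 and 22.3 CPM in bulk MEF (3.08 ± 0.78, edgeR adjusted p 0.01205) and was lost without bulk MEF replicate 1 or 4. Ezh2, the Polycomb methyltransferase, differed by 2.88 ± 0.75 (edgeR adjusted p 0.0141) and was lost when bulk MEF replicate 1, 2 or 3 was left out.

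Genes of protein synthesis and energy metabolism are read against the 10.8% of all tested genes that were higher in GMP. Of 46 tested cytosolic ribosomal protein genes, 2 were called higher (4.35%) and none lower (median 0.78), and none was called without 1 bulk MEF library and 4 without fast GMP replicate 1. Of 22 glycolysis genes 2 were higher (9.09%, median 0.84), or 4 without fast GMP replicate 1 or slow GMP replicate 3 and 1 without bulk MEF replicate 1 or 2. Of 31 tested oxidative phosphorylation genes 1 was higher (3.23%, median 0.97), with 0 to 4 when 1 library was left out, and none was lower in either list. One of the glycolysis genes was Hk3, the hexokinase of myeloid cells, with 100.9 to 1317 CPM in GMP (median 374.7) against 0.0994, 2.19, 1.56 and 0.346 CPM in bulk MEF (8.71 ± 1.21, edgeR adjusted p 0.000157; 9.32 without bulk MEF replicate 2). Of 27 nucleolar genes 4 were higher (14.8%) and none lower (median 1.20), or 2 without 1 bulk MEF library and 7 without fast GMP replicate 1, and Dkc1, the pseudouridine synthase of ribosomal RNA, was one of the 4 (3.09 ± 0.62, edgeR adjusted p 0.003023). Genes of interferon response and antigen display were higher in part. Of those tested, 4 of 11 (36.4%) and 5 of 11 (45.5%) were called higher and none lower, with medians of 1.82 and 2.62. H2-D1, a classical MHC class I chain, had 720.6 to 1807 CPM in GMP (median 1272) against 155.0, 341.1, 203.4 and 95.7 CPM in bulk MEF (2.62 ± 0.51, edgeR adjusted p 0.002448). Ifitm3, a membrane protein that blocks virus entry, differed by 3.27 ± 0.66 (edgeR adjusted p 0.00333). Of 20 immediate early genes, which serum is known to induce, 5 were lower in GMP (25.0%, against 8.36% of all genes tested) and none higher. Their median was -1.32, or -1.98 without slow GMP replicate 1, and 3 were lower without bulk MEF replicate 4. Egr1 had 0 to 13.0 CPM in GMP (median 2.91) against 144.6, 301.2, 226.6 and 256.1 CPM in bulk MEF (-5.92 ± 0.87, edgeR adjusted p 0.0002776).

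**Figure D4:**
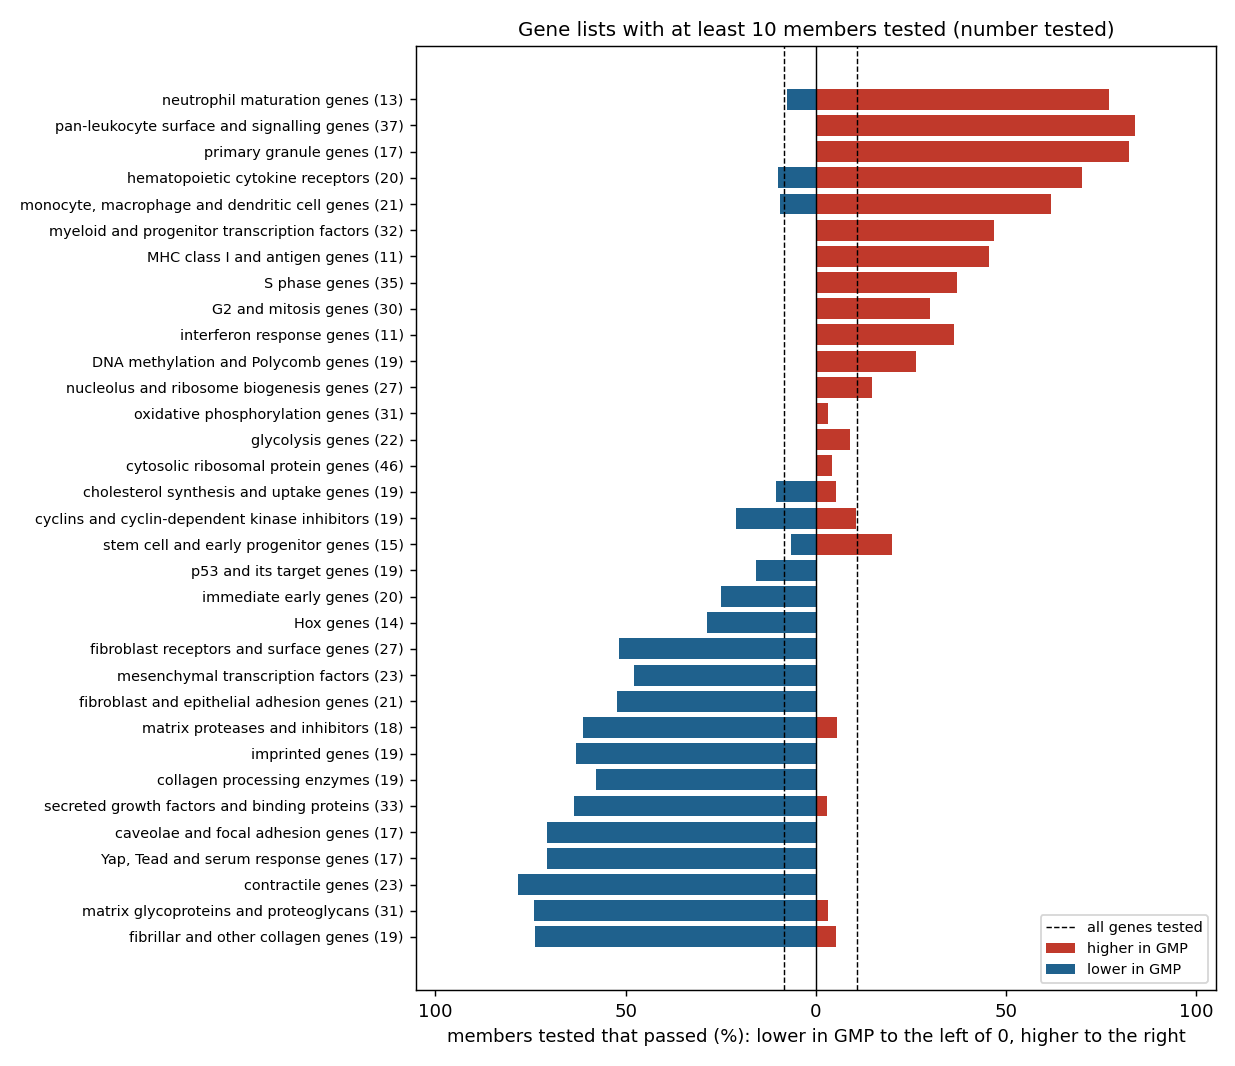
Share of the tested members of the 33 gene lists with at least 10 members tested that were higher or lower in GMP (edgeR adjusted p under 0.05), in percent of the members tested, with dashed lines at the shares over all genes (10.8% higher and 8.36% lower). Among the lists drawn, the white blood cell, primary granule and neutrophil lists have the highest shares of higher calls (83.8%, 82.4% and 76.9%), and the contractile, matrix glycoprotein and collagen lists the highest shares of lower calls (78.3%, 74.2% and 73.7%). The ribosomal protein, glycolysis and oxidative phosphorylation lists stay below the lines.

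Few markers of other cell types that the samples could hold were abundant enough to test, and each list is given here by its summed level. Over the 7 lists 31 of 115 members were tested and 15 of the 31 (48.4%) were called, 9 higher and 6 lower, against 19.1% of all genes tested. A member without counts in 1 group could pass the filter only through the other group, so this share is no independent finding. The erythroid and megakaryocyte list had 51.0 to 472.5 CPM in GMP libraries against 22.8 to 84.5 CPM in bulk MEF libraries. Of its 25 members 4 were tested, 1 was higher, 11 had no count in any bulk MEF library, and 4 had no count in any GMP library, all of them the alpha and beta globins (Hba-a1, Hba-a2, Hbb-b1 and Hbb-b2), which had none in bulk MEF either. Mast cell, basophil and eosinophil genes summed to 22.1 to 219.6 CPM in GMP against 29.9 to 45.7 CPM in bulk MEF, with 3 of 5 tested higher, 12 of 19 at 0 in bulk MEF and 3 at 0 in GMP. For lymphoid genes the sums were 3.67 to 311.1 CPM and 75.6 to 203.2 CPM, with 2 of 5 tested higher and 2 lower, 12 of 23 at 0 in bulk MEF, among them the B cell marker Ms4a1 and the T cell marker Cd3e, and 1 (Ncr1, of natural killer cells) at 0 in GMP. The lowest sum of lymphoid genes was in fast GMP replicate 3 and the highest in fast GMP replicate 1. Endothelial genes (10.5 to 222.3 CPM in GMP, 133.5 to 186.2 CPM in bulk MEF), epithelial genes (20.9 to 185.2 and 97.0 to 123.4 CPM) and neural genes (17.1 to 199.2 and 296.6 to 884.4 CPM) had 1, 0 and 1 member called higher and 1, 1 and 2 called lower. None of their members was at 0 in every GMP library, and in bulk MEF 3 of 10 endothelial genes (Cdh5, Emcn and Cldn5), no epithelial gene and 3 of 11 neural genes (Nefm, Gfap and Olig2) were. The muscle, cartilage and adipose list summed to 33.9 to 363.1 CPM in GMP against 5.54 to 9.69 CPM in bulk MEF, and its 1 called member was Lpl, the lipase of adipose tissue and macrophages, with 21.4 to 167.0 CPM in GMP (median 81.4) against 2.78, 3.23, 4.79 and 1.62 CPM in bulk MEF (4.76 ± 0.86, edgeR adjusted p 0.001373). The genes named as being at 0 were picked out after their values were seen, and the part of such cells in the results was not tested.

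**Figure D5:**
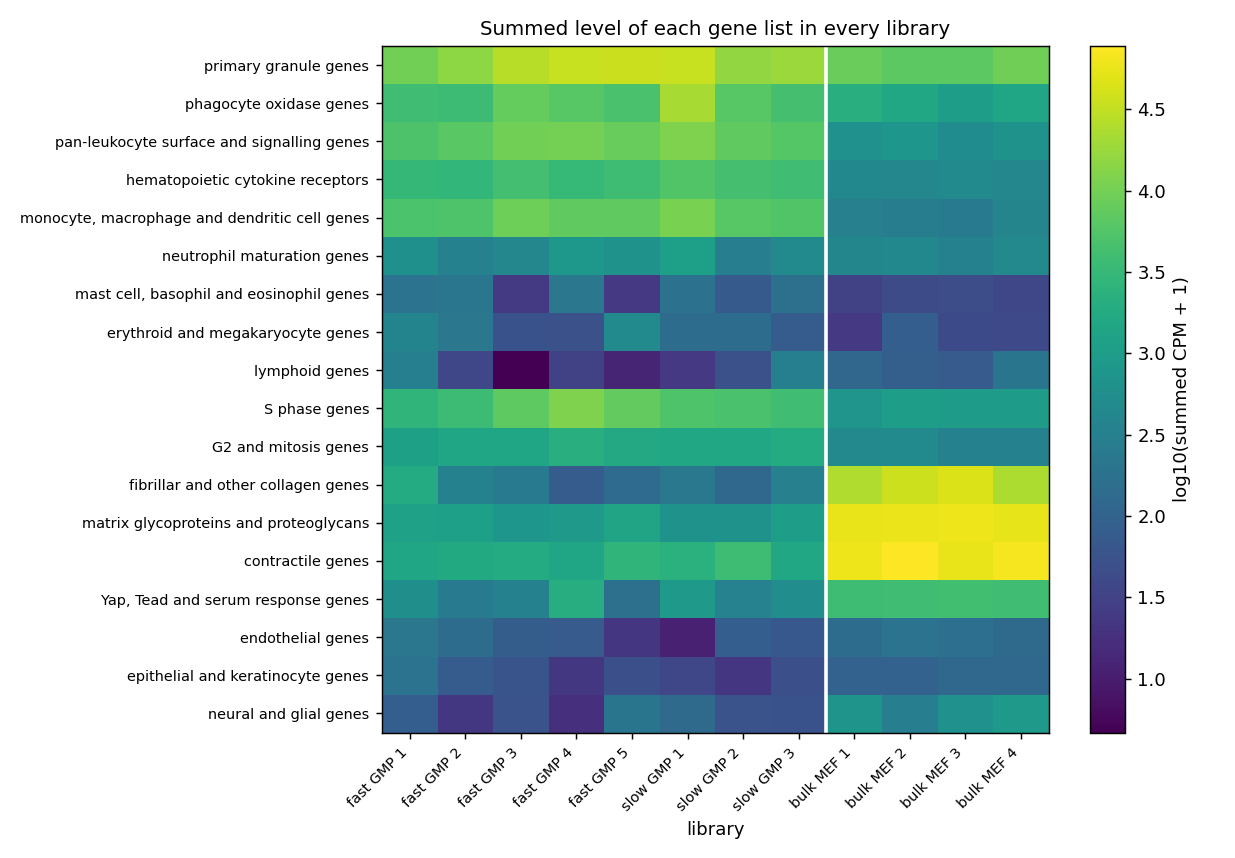
Summed level of 18 gene lists in each of the 12 libraries, as log10 of the summed CPM plus 1, with the GMP columns to the left of the bulk MEF columns. The collagen, matrix and contractile lists are low in all 8 GMP columns and high in all 4 bulk MEF columns, the monocyte list the reverse, and the endothelial, epithelial, lymphoid, mast cell and erythroid lists stay at or below 472.5 CPM in every column.

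The fast and slow GMP libraries were also set against each other, and each set on its own against bulk MEF. Between fast and slow GMP no gene of 10951 passed edgeR's test, 1488 had an unadjusted p under 0.05, and the lowest adjusted p was 0.2733. With 5 and 3 libraries that spread widely, the fast and slow GMP are not shown to be alike. Fast GMP alone against bulk MEF gave 819 of 9894 genes higher (8.28%) and 861 lower (8.7%). Slow GMP alone gave 1361 of 11979 genes higher (11.4%) and 1361 lower (11.4%). The 2 comparisons share the bulk MEF libraries. In each of them 14 of 16 tested primary granule genes were called higher, and with slow GMP alone 1 was called lower.

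Few genes could be shown to be alike. In 10 genes the 95% interval of the difference lay within 1 of 0 on the log2 scale. Cfl1 (cofilin, which severs actin filaments in most cells) was among them, with 2212 to 5180 CPM in GMP (median 4087) against 3904, 4190, 3055 and 4298 CPM in bulk MEF, and an interval of -0.67 to 0.77. Rplp0, a protein of the ribosomal stalk, had an interval of -0.94 to 0.83. The GMP libraries also held many genes that were high in only 1 library. Of 1873 genes averaging at least 100 CPM in GMP, 117 (6.25%) had over 80% of their summed level in 1 library, against 1 of 1653 (0.0605%) in bulk MEF. Slow GMP replicate 1 held 40 of the 117 and fast GMP replicate 5 held 32. Of the 1178 genes called higher in GMP, 49 (4.16%) were of this kind and 847 had counts in all 8 GMP libraries.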

How the data were processed

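RNA of 8 GMP and 4 bulk MEF libraries was measured by sequencing. The table that the authors deposited holds whole-number read counts, not normalized, for 23283 gene symbols, and 2560 of these had no count in the 12 libraries. The submitters' processing notes name the build mm9 and the tools HTSeq, TopHat2 2.0.4 and CASAVA 1.8.2. They leave out what each tool did, the gene annotation and any strand option, which are thus not given in the sources used here. Reads of overlapping or antisense genes, and of near-identical copies, therefore cannot be told apart. Within groups, 19 pairs of libraries were compared and none held identical values. Each pair differed beyond sampling noise (chi-square over its degrees of freedom at least 74.6), so each library counted as 1 sample.

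Rn45s and Lars2 were left out before scaling. The 2 groups were compared with edgeR 4.0.16 in R 4.3.3 (TMM factors, filterByExpr, robust quasi-likelihood F test, Benjamini-Hochberg adjustment over the genes tested, two-sided threshold of 0.05), without covariates. Standard errors came from the same fit (the absolute log2 fold change divided by the square root of F), and CPM values use its TMM factors. For a gene without a count in a group, a floor of 3 counts over the group gave the lower bound of its fold. Such bounds cover counting error only, because amplified reads are not independent molecules. The script was tested on simulated data with known changes. Each simulated gene was given the same spread in both groups, so the wider spread of the GMP libraries was not tested in this way.

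The comparison, the 43 gene lists (980 genes from textbook knowledge, of which 973 matched by symbol, 5 by a synonym and 2 not) and the naming rule were chosen with earlier results of these data known. The rule names a fixed set of lineage, proliferation and reprogramming genes, and the 12 highest and 12 lowest fold changes among called genes whose groups do not overlap, with a count in every library of the higher group and a mean of at least 100 CPM there. It takes up to 6 called members of each list on the side with more calls and up to 3 on the opposite side, by mean CPM of the higher group. Of the lists of transcription factors, receptors and cyclins any member may be named. Last come the 6 most abundant genes whose 95% interval lay within 1 of 0 on the log2 scale and the 6 that varied most among GMP libraries. Of these, the text describes a part. The alternatives were other scaling factors, Rn45s and Lars2 kept, other filters on low counts, DESeq2 1.42.0, limma 3.58.1 (voom with quality weights), a test against a minimum fold, the replicate number as a block, other groupings of the libraries, thinned counts and each library left out in turn. Promoter motifs, tables and plots were made with Python 3.11.15, numpy 2.4.6, pandas 2.3.3 and matplotlib 3.10.9.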

Additional observations from a re-analysis of the deposited data

Results flagged for a closer look

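In 12 of the 155 groups of library values of the genes described (7.74%), 1 library stood apart from the others of its group. The limit was Dixon's 95% limit on log2 CPM. Some of these genes were named for their spread over GMP libraries, so the share cannot be read against the chance rate of about 1 in 20. Of the blood genes, Irf8 had 1018 CPM in fast GMP replicate 5 and 58.8 to 187.9 CPM in the other GMP libraries. Myb had 312.6 CPM in the same library and 9.64 to 50.4 CPM in the others. Gfi1 reached 58.7 CPM in slow GMP replicate 2, against 1.58 to 9.91 CPM in the other GMP libraries. Cyba reached 21200 CPM in slow GMP replicate 1, with 2525 to 6746 CPM in the others. These 4 genes were higher in GMP with and without the library that stood apart, although Irf8, Myb and Cyba had adjusted p-values of 0.02219, 0.02381 and 0.02229 by edgeR and did not pass in most fits without 1 bulk MEF library.

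Other genes stood apart in single GMP libraries too. Sparc had 714.9 CPM in slow GMP replicate 3 and 42.5 to 92.0 CPM in the other GMP libraries, and H19 had 111.0 CPM in slow GMP replicate 1 and 0.451 to 4.69 CPM in the others. Col15a1 had 590.5 CPM in fast GMP replicate 1 and at most 17.2 CPM in the other GMP libraries. Ccnd3 had 1320 CPM in fast GMP replicate 4, against 135.1 to 374.6 CPM in the others. Among the genes named for their spread over GMP libraries were Myef2, a repressor of the myelin basic protein gene, with 20390 CPM in fast GMP replicate 2 and 0 to 8.23 CPM in the other GMP libraries, and Sez6l, a membrane protein of neurons, with 5136 CPM in fast GMP replicate 3 and 0 to 37.9 CPM in the others. Myef2 was not called (9.28 ± 3.59 on the log2 scale, edgeR adjusted p 0.08384), and its difference was -0.56 without fast GMP replicate 2. Sez6l was called (10.99 ± 3.58, edgeR adjusted p 0.04188), but not once any bulk MEF library was left out, and its difference was 13.30 without bulk MEF replicate 2.

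In bulk MEF, Klf4 had 155.1 CPM in replicate 3 and 123.4 to 127.7 CPM in the others, and Anxa1 had 404.4 CPM in replicate 4 and 298.9 to 312.2 CPM in the others.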

How the results depend on the processing

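The number of called genes depended on the test and on the bulk MEF libraries. DESeq2 called 3325 genes, 1957 of them higher in GMP. Limma voom with quality weights called 4316, of which 1853 were higher and 2463 lower, so that 42.9% of its calls were higher against 56.3% in the edgeR fit. A fit of all 24 libraries called 5148 of 16199 genes, 2894 higher and 2254 lower. Leaving out 1 library gave 1245 to 2258 called genes, 577 to 1292 of them higher and 666 to 1089 lower, with the lowest counts when any bulk MEF library was left out, where 57.8% to 59.7% of the calls were kept with the same sign. DESeq2 and voom kept 99.6% and 99.7%. Under the other settings the counts stayed within 1.5 times. Upper-quartile factors moved the median of all genes to 0.46 on the log2 scale, against 0.34 with TMM.

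Of 92 called genes named in the text, 78 passed under each of the 26 alternatives that tested them and none changed direction. Without 1 bulk MEF library 12 no longer passed, and with slow GMP alone 7, among them Irf8, Myb, H19 and Cd44. Of 16 genes not called, 4 (Cdkn1a, Gata2, Myc and Pdgfra) passed under another setting. The causes were not tested.

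GMP and bulk MEF libraries share replicate numbers, but no label says what they mark. The correlations of deviations in 10 same-numbered pairs were -0.055 to 0.05, and 3 of 11 libraries correlated best with their own number, so the numbers were not taken to pair libraries. With the replicate block 2049 genes were called, 959 higher and 1090 lower.

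The GMP libraries were shallow, and 3 counts stood for 0.897 to 1.92 CPM in them, against 0.267 to 0.346 CPM in bulk MEF. A gene under about 1 CPM in GMP cannot be told from one that is off. With 4 bulk MEF libraries against a wide spread in GMP, a gene that missed the threshold is not shown to be alike in both.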

Other observations

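Many genes of blood cells have a close relative that other cells use for the same job, and the pairs were set side by side. The 20 pairs were drawn up from textbook knowledge with earlier results of these data known, and their first members were picked as genes of blood cells, so that their direction is no independent finding. All 20 first members were called higher in GMP, with a median log2 fold change of 6.62, against 10.8% of all genes tested. Of the relatives, 19 were tested, 6 were called lower, 13 were not called and none was called higher, with a median of -1.85. The highest of the relatives, at 3.50, was that of Hk3, which was not called but passed as higher in 4 of the 26 alternatives. Among the GTPases, Rac2 had 44.0 to 453.6 CPM in GMP (median 105.3) against 1.69, 0, 1.98 and 3.12 CPM in bulk MEF (6.63 ± 1.23, edgeR adjusted p 0.001685), while its relative Rac1 did not pass (-0.08 ± 0.66, edgeR adjusted p 0.9517; -0.72 without slow GMP replicate 1). Lcp1 (L-plastin, which bundles actin in white blood cells) ran from 210.8 to 1069 CPM in GMP (median 547.0), against 25.5, 20.8, 11.9 and 6.23 CPM in bulk MEF (5.20 ± 0.69, edgeR adjusted p 0.0001099). Its relative Pls3 (T-plastin) was lower in GMP (-7.73, or -8.32 without slow GMP replicate 3). The cortactin pair showed the same order: Hcls1 was higher (5.22, or 5.83 without bulk MEF replicate 1) and Cttn lower (-4.62). Of the pair of SH2-domain phosphatases, Ptpn6 was higher (9.73) and Ptpn11, which is made in most cells, did not pass (-0.70). The immunoproteasome subunit Psmb8 was higher (5.72, or 6.87 without bulk MEF replicate 1), and Psmb5, the standard subunit that shares its place in the complex with Psmb8, did not pass (0.11). Whether a pair differed from other pairs of genes was not tested.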
